A study of Homo sapiens with 6 samples.

Results

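The genes described here are 10 members of the cell's defence against oxidants and metals: NFE2L2, HMOX1, NQO1, GCLM, GCLC, TXNRD1, SQSTM1, MT2A, MT1X and MT1F. They were chosen by name, with earlier results of these data known. Every probe set that the platform's probe table gives to 1 of these symbols was taken. This gave 16 of the 22283 probe sets, or 10 of the 11963 genes named by a probe set with 1 symbol. The study used Hs578T, an established human breast cancer line of mesenchymal character, carrying an inducible gene for the homeobox transcription factor HOXA5. RNA came from uninduced cells (0 h) and from cells induced for 6 h or 9 h, and the experiment was done 2 times, giving 2 Affymetrix arrays for each of the 3 times. All groups carried the inducible HOXA5 gene, the cells were seeded on a 10 cm dish 24 h before induction, and no source used here names the inducing agent. Since 0 of the arrays used were from uninduced cells at the later times, induction, the agent and time in culture cannot be told apart. The labels do not say whether the line is 1 clone, and HOXA5 itself was not analysed here, since the probe table used names no probe set for it.

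NRF2, the protein of NFE2L2, is a transcription factor that KEAP1 holds at a low level by sending it for degradation. Oxidants and electrophiles release it, and together with a small MAF protein it binds antioxidant response elements and switches on genes of glutathione synthesis, thioredoxin reduction, quinone reduction and heme breakdown. This control acts mainly on the NRF2 protein rather than on its transcript. Metallothioneins are small cysteine-rich proteins that bind zinc and copper, and the zinc sensor MTF1 switches on their genes through metal response elements.

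Array brightness was uneven, with medians of the deposited values between 18.7 and 95.7, the dimmest at 6 h and the brightest at 0 h, both in experiment 1. Values below are therefore quantile-normalised intensities, and each change is relative to the whole array. All 16 member probe sets passed the filter on low values, and the dimmest member value, HMOX1 at 6 h in experiment 2, was 5.03 times the floor of 12.7 intensity units. As a check of the line, 12 of 14 mesenchymal markers lay over 10 times the floor on every array, among them vimentin, and their summed level stayed between 19540 and 20990 on the 6 arrays. Of 14 luminal epithelial markers 2 did so, KRT18 and XBP1, while EPCAM, KRT19, AGR2 and CLDN4 failed the filter on low values. Markers of endothelial cells, leukocytes, and erythroid and hepatic cells summed to at most 65.6, 114 and 155 on any array. Each experiment is a batch of RNA by its label, although the labels of the second 6 h array name both experiments and its title, experiment 2, was followed. Thus the limma p-values measure the spread between these 6 arrays. In such bulk RNA fewer cells of a type and less RNA per cell cannot be told apart.

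No member passed the threshold in any comparison, and the 10 genes lay on both sides of 0. At 9 h the 3 metallothioneins and HMOX1 lay below their 0 h level in both experiments, and NFE2L2, GCLM and SQSTM1 lay above theirs. Over all tested probe sets 28.9% were lower and 26.9% higher in both, so members on both sides are no result by themselves. For SQSTM1 the 0 h and 9 h arrays overlapped, and its dimmer probe set was only 0.03 higher on the log2 scale in experiment 2. MT2A was 1.84-fold lower (log2 change -0.88 ± 0.23, standard error, n = 2 arrays per time, limma adjusted p = 0.559). NFE2L2 was 1.78-fold higher (log2 change 0.83 ± 0.23, adjusted p = 0.577). By limma 0 of the 16 member probe sets passed at 9 h against 0 h, as did 0% of the 18360 probe sets tested, of which 1360 had a p under 0.05 before adjustment. When the fit held a term for the experiment, 0 members passed again, with a lowest adjusted p of 0.109 for MT2A, while 66 probe sets in all passed, 0.327% of those tested on the higher side and 0.0327% on the lower side. With the second 6 h array placed by its lot label, 0 of all passed and the adjusted p of MT2A was 0.557.

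**Figure D1:**
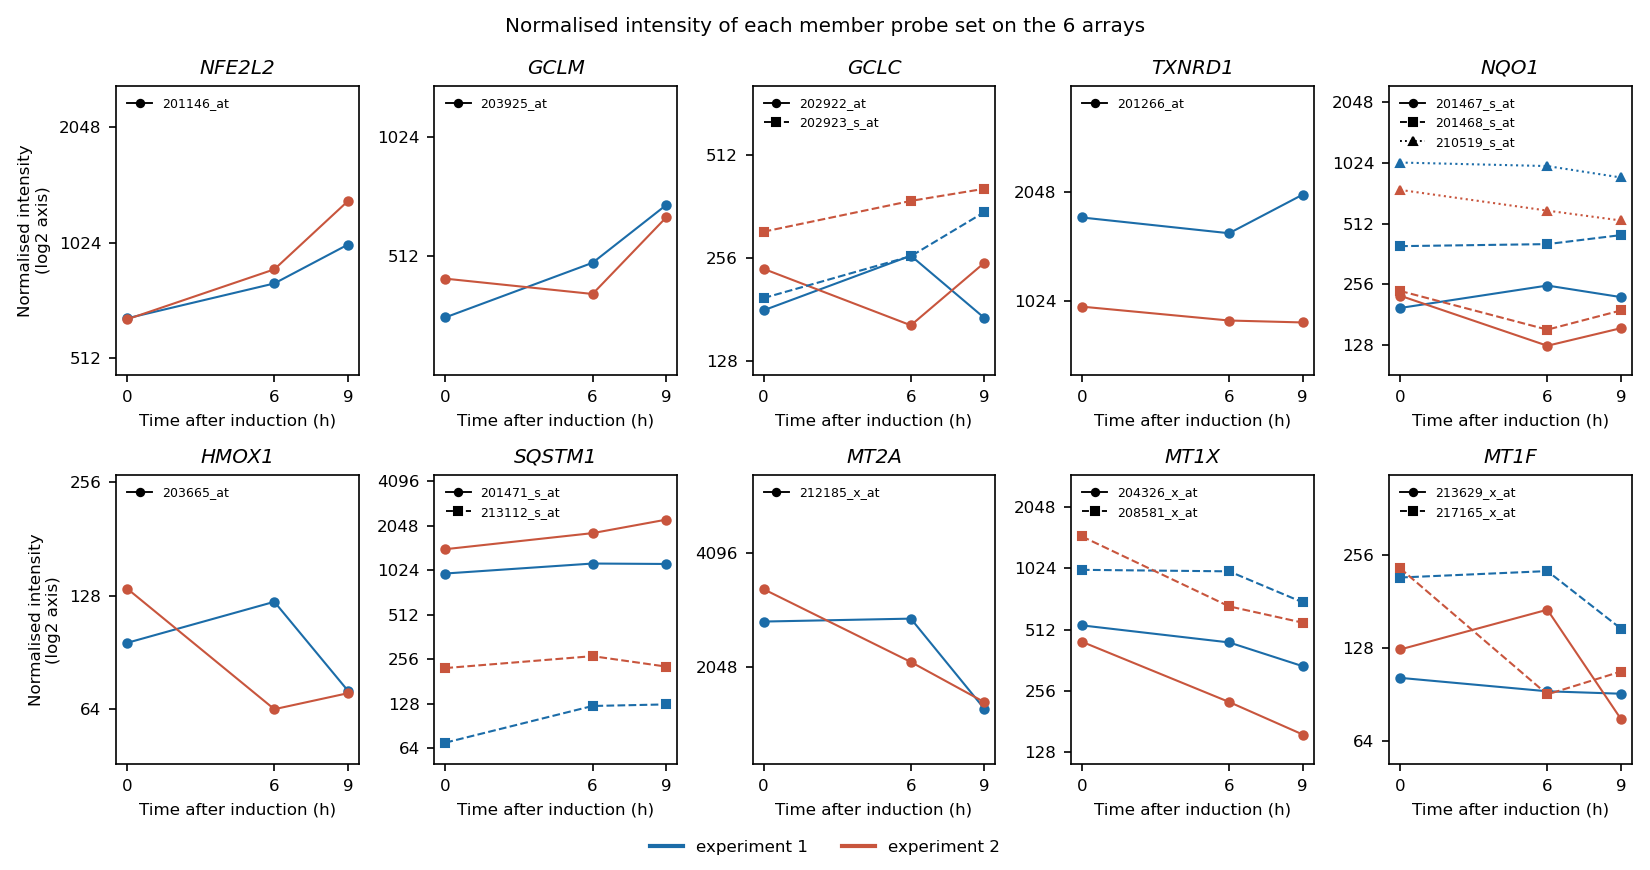
Normalised intensity (log2 axis) of the 16 member probe sets against time after induction (h). Each line joins the 3 arrays of 1 experiment, colours mark the experiments and symbols the probe sets of a gene; the lines of NFE2L2 start at 649 and 645 and reach 1012 and 1315, and those of MT2A end at 1587 and 1653, below both of their 0 h values.

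NFE2L2 had normalised intensities of 649 and 645 (0 h), 800 and 871 (6 h) and 1012 and 1315 (9 h), experiment 1 before experiment 2 in each pair here and below. Both arrays of each later time lay above both arrays of the time before, and the 0 h arrays differed little. The log2 change was 0.37 ± 0.23 at 6 h against 0 h (adjusted p = 0.969), 0.83 ± 0.23 at 9 h against 0 h and 0.47 ± 0.23 at 9 h against 6 h (adjusted p = 0.932). Within the experiments the change at 9 h was 0.64 in experiment 1 and 1.03 in experiment 2. NFE2L2 and 1 of the 2 GCLC probe sets were the member probe sets that were higher at each step in both experiments, a pattern seen in 5.30% of all tested probe sets.

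GCLM and GCLC encode the modifier and the catalytic subunit of glutamate-cysteine ligase, the enzyme of the first and rate-limiting step of glutathione synthesis. GCLM had intensities of 359 and 450 (0 h), 494 and 412 (6 h) and 691 and 643 (9 h). Both 9 h arrays lay above the other 4, while the 6 h arrays overlapped with 0 h. Its log2 change was 0.73 ± 0.25 at 9 h against 0 h (adjusted p = 0.623) and 0.17 ± 0.25 at 6 h against 0 h, where the experiments had opposite signs (0.46 and -0.13). The brighter GCLC probe set, 202923_s_at, read 195 and 305 (0 h), 259 and 376 (6 h) and 349 and 408 (9 h), with a log2 change of 0.63 ± 0.34 at 9 h, which was 0.30 if the first 0 h array was left out and 0.95 if the second was. The other, 202922_at, read 180 and 238 (0 h), 260 and 162 (6 h) and 171 and 248 (9 h), and its log2 change at 9 h was -0.01 ± 0.37. The 2 probe sets of this gene therefore gave different values, and GCLC has no single value here. Their difference was not tested.

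TXNRD1 is the cytosolic thioredoxin reductase, and NQO1 the quinone reductase often taken as the standard NRF2 target. TXNRD1 read 1746 and 988 (0 h), 1579 and 905 (6 h) and 2020 and 894 (9 h). The times overlapped, with log2 changes of -0.14 ± 0.48 at 6 h and 0.03 ± 0.48 at 9 h against 0 h. The brightest NQO1 probe set, 210519_s_at, read 1028 and 752 (0 h), 988 and 593 (6 h) and 867 and 530 (9 h), a log2 change of -0.38 ± 0.36 at 9 h. It was lower at each step in both experiments, like both MT1X probe sets, a pattern of 4.16% of all tested probe sets. The other 2 NQO1 probe sets had log2 changes of -0.18 ± 0.41 and -0.07 ± 0.59 at 9 h, with opposite signs in the experiments.

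For TXNRD1 and 2 of the NQO1 probe sets the experiments differed more than the times. All 3 arrays of experiment 1 lay above all 3 of experiment 2 for TXNRD1 and for 2 of the 3 NQO1 probe sets, as they did for 9.31% of all tested probe sets. TXNRD1 was higher in experiment 1 by a log2 difference of 0.82 at 0 h, 0.80 at 6 h and 1.18 at 9 h. KRT18, a keratin, also ran this way, at 3510, 1908 and 1950 at 0, 6 and 9 h in experiment 1, against 851, 781 and 929 in experiment 2. It was 1 of the 10 tested luminal markers to do so. The other 9 summed to 773, 849 and 1119 in experiment 1, against 903, 1180 and 1146 in experiment 2, and the part of luminal markers in the result was not tested. SQSTM1 ran the other way: both of its probe sets were lower on all 3 arrays of experiment 1, against a background of 9.80%.

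SQSTM1, also known as p62, is an autophagy receptor that binds KEAP1, and its gene is itself an NRF2 target. Its brighter probe set, 201471_s_at, read 973 and 1421 (0 h), 1137 and 1825 (6 h) and 1129 and 2251 (9 h). Each induced array lay above the 0 h array of its own experiment, but the times overlapped, because the experiments lay far apart. The log2 change was 0.29 ± 0.40 at 6 h and 0.44 ± 0.40 at 9 h against 0 h. The dimmer probe set, 213112_s_at, read 70.0 and 224 (0 h), 124 and 269 (6 h) and 127 and 229 (9 h), a log2 change of 0.45 ± 0.65 at 9 h. Without scaling between arrays they read -0.24 and -0.13 at 9 h, where all probe sets shifted by a median of -0.56, which puts them 0.32 and 0.43 above that median.

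HMOX1, the inducible heme oxygenase that breaks heme down to biliverdin, iron and carbon monoxide, had intensities of 96.1 and 134 (0 h), 124 and 64.1 (6 h) and 71.7 and 70.6 (9 h). Both 9 h arrays lay below both 0 h arrays. At 6 h the experiments moved apart, with a log2 change of 0.36 in experiment 1 and -1.06 in experiment 2. The fitted log2 change was -0.35 ± 0.45 at 6 h (adjusted p = 0.972) and -0.67 ± 0.45 at 9 h (adjusted p = 0.801), and at 9 h it was -0.42 and -0.92 in the experiments. Leaving out the second 0 h array gave -0.43 at 9 h, and leaving out the first gave -0.91. HMOX1 thus lay on the other side of 0 from NFE2L2 and GCLM at 9 h, in both experiments.

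The metallothioneins bind zinc and copper, and MT2A is commonly the most abundant of them. It had 2698 and 3285 (0 h), 2746 and 2110 (6 h) and 1587 and 1653 (9 h). The 9 h arrays were the lowest 2 of the 6 and lay close together. At 6 h MT2A was at its 0 h level in experiment 1 (log2 change 0.03) and below it in experiment 2 (-0.64).

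MT1X was read by 2 probe sets. On 204326_x_at it had 537 and 447 (0 h), 443 and 226 (6 h) and 339 and 157 (9 h), a log2 change of -1.09 ± 0.47 at 9 h (adjusted p = 0.674), from -1.65 without the 9 h array of experiment 1 to -0.53 without that of experiment 2. On 208581_x_at it had 1007 and 1468 (0 h), 990 and 666 (6 h) and 697 and 554 (9 h), a log2 change of -0.97 ± 0.31 (adjusted p = 0.602). Both probe sets placed both arrays of 6 h and of 9 h below both of 0 h.

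The MT1F probe sets agreed at 9 h but not at 6 h. On 217165_x_at MT1F had 216 and 232 (0 h), 227 and 90.7 (6 h) and 148 and 108 (9 h), while 213629_x_at gave 103 and 127 (0 h), 92.8 and 170 (6 h) and 91.2 and 75.5 (9 h). The log2 changes at 6 h were -0.64 ± 0.47 and 0.14 ± 0.42, and at 9 h -0.83 ± 0.47 and -0.46 ± 0.42. All 5 metallothionein probe sets carry the suffix _x_at, which Affymetrix gives to probe sets with probes that can match several genes. The signal of 1 metallothionein can therefore hold that of its close relatives, and these 5 probe sets are not independent. Across the 6 arrays their log2 values correlated with each other between -0.19 and 0.92, which describes arrays that share cells and normalisation.

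The promoters of the 2 metallothioneins with a sequence in the RefSeq table (GRCh38.p14) are shown because metal response elements in such promoters are the known route of their induction by metals. Each line gives the 250 bases before the annotated start on the gene's own strand, MT2A at chr16:56608334-56608583 and MT1X at chr16:56682220-56682469, both on the plus strand. Capitals mark matches, on either strand, to the metal response element cores TGCACNC and TGCGCNC and to the antioxidant response element core TGACNNNGC.
MT2A: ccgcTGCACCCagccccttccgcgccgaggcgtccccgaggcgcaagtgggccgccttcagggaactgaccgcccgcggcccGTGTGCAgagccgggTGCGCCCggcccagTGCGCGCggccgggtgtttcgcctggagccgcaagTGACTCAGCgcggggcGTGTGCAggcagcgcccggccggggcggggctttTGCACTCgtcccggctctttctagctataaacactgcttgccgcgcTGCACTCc
MT1X: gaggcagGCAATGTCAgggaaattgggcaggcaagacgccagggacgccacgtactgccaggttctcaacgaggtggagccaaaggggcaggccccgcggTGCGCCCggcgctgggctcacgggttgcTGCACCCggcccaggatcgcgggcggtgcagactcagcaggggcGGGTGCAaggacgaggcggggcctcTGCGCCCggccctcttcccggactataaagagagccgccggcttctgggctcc
MT2A held 7 metal response element cores and 1 antioxidant core, and MT1X held 4 and 1, with no base shared between matches. Of 35116 promoter windows of the same length 24.8% held at least 1 metal core, 0.37% held 4 or more and 0.0313% held 7 or more. A match describes the letters and does not show that a factor binds there.

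The antioxidant core was present in 10.9% of all windows. Besides MT2A and MT1X it was found in GCLM and in both TXNRD1 windows, of the 8 members with a sequence in the table (HMOX1 and MT1F were not in it). GCLM (chr1:93909431-93909680, minus strand) and the second TXNRD1 start (chr12:104286782-104287031, plus strand) are shown for the core that each holds, again in capitals and read here on the reverse strand. The capitals nearer the 5′ end of GCLM are a metal response element core.
GCLM: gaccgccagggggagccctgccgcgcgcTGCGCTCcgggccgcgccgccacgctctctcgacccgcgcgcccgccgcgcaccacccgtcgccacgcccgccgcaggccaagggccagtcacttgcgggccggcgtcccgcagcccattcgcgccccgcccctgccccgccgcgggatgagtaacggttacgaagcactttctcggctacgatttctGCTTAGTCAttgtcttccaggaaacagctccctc
TXNRD1: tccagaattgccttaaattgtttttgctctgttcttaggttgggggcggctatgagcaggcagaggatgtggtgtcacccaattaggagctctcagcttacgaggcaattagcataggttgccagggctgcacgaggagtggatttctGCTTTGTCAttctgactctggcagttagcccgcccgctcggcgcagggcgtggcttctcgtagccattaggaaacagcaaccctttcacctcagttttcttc
The windows of NFE2L2 and NQO1 held neither core, 2 of the 3 SQSTM1 windows and the GCLC window held metal cores and 0 antioxidant cores, and no match in this window says nothing of sites elsewhere.

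**Figure D2:**
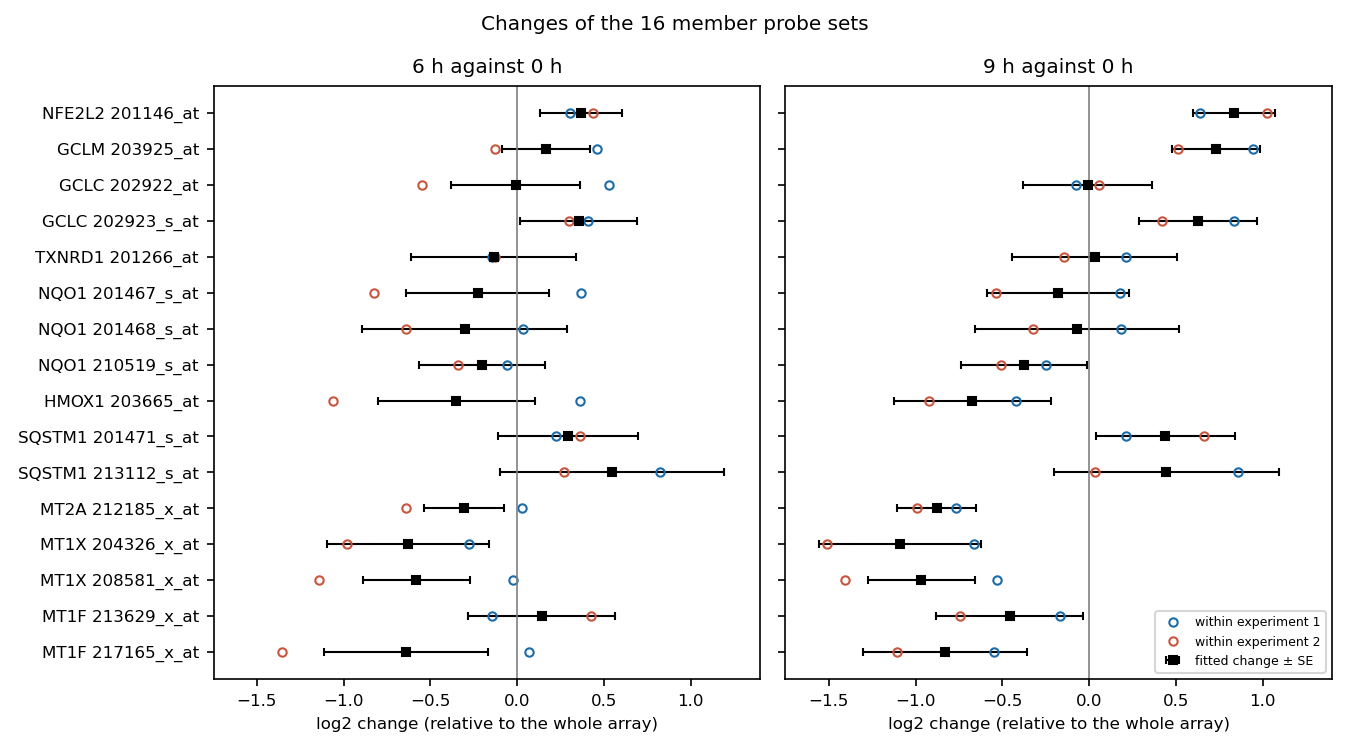
Log2 change of the 16 member probe sets at 6 h against 0 h (left) and 9 h against 0 h (right), relative to the whole array. Squares are the limma fit with its standard error and open circles the change within each experiment; at 9 h all 5 metallothionein probe sets and HMOX1 lie left of 0 in both experiments, and NFE2L2, GCLM, SQSTM1 and GCLC 202923_s_at right of it.

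Set side by side, the medians of the 16 log2 changes were -0.17 (6 h against 0 h) and -0.12 (9 h against 0 h), beside medians of -0.0033 and -0.02 over all tested probe sets. Both comparisons share the 0 h arrays. At 9 h both arrays lay below both 0 h arrays for 6 member probe sets, those of HMOX1 and the 3 metallothioneins, where 19.1% of all tested probe sets did so. The 5 metallothionein probe sets among them can share signal, so these are not 6 independent members. The members were also chosen with earlier results of these data known, so counts beside the background are a description only. For 3 member probe sets, of NFE2L2, GCLM and GCLC, both 9 h arrays lay above, where 18.3% of all did, which is near the background. At 6 h the same counts were 2 below (both MT1X) and 1 above (NFE2L2), with 16.2% and 16.1% of all probe sets.

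In the same direction in both experiments, 7 member probe sets were lower and 5 higher at 9 h than at 0 h, where 28.9% and 26.9% of all were. At 6 h against 0 h 4 were lower and 4 higher, where 25.8% and 25.3% of all were, and at 9 h against 6 h 5 were lower and 4 higher, where 25.9% and 27.1% of all were. For 9 h against 6 h both arrays lay below for MT2A and MT1F on 213629_x_at, with 15.1% of all, and above for NFE2L2 and GCLM, with 14.9% of all.

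Before adjustment, limma gave a p under 0.05 at 9 h against 0 h to MT2A and MT1X on 208581_x_at on the lower side, with 3.30% of all probe sets, and to NFE2L2 and GCLM on the higher side, with 4.11% of all. At 6 h against 0 h 0 members did so, with 2.28% of all lower and 2.48% higher, 875 probe sets in total. At 9 h against 6 h MT2A did so on the lower side (2.58% of all) and 0 members on the higher side (2.69% of all), and its log2 change was -0.57 ± 0.23 (limma adjusted p = 0.932). Without scaling between arrays that change of MT2A was 0.26, where all probe sets shifted by 0.75, or -0.50 relative to that shift. In these last comparisons 0 members and 0% of all probe sets passed after adjustment, both with and without a term for the experiment.

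With a term for the experiment the members below that unadjusted level at 9 h against 0 h were MT2A, both MT1X probe sets and MT1F on 217165_x_at on the lower side (6.57% of all), and NFE2L2, GCLM, GCLC on 202923_s_at and SQSTM1 on 201471_s_at on the higher side (7.29% of all). At 6 h against 0 h it was MT1X on 204326_x_at on the lower side (4.83% of all) and 0 members on the higher side (4.87% of all). At 9 h against 6 h it was MT2A on the lower side (4.44% of all), and NFE2L2 and GCLM on the higher side (4.80% of all).

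Without scaling between arrays the median of all probe sets moved by -0.56 at 9 h, so a lower sign there is favoured by the shift itself. Relative to that median NFE2L2 and GCLM had log2 changes of 0.75 and 0.67, and MT2A, MT1X on 204326_x_at and HMOX1 had -0.94, -1.08 and -0.69. At 6 h the median shift was -1.34, and relative to it NFE2L2 and GCLM had 0.07 and -0.09.

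Of 11 listed metallothioneins outside the members 7 were on the array with 1 symbol and 6 were tested; 0 passed in any comparison by limma, and at 9 h 4 were lower and 1 higher in both experiments, with a median log2 change of -0.45. Over all genes 29.5% were lower and 28.0% higher in both. The 4 lower ones, MT1E, MT1G, MT1H and MT1HL1, were represented by _x_at probe sets. These can share signal with each other and with the 5 member metallothionein probe sets, so they are not independent of them. MT3, on a probe set without that suffix, had -0.19 ± 0.44 (-0.47 and 0.09). MT1H had a log2 change of -1.26 ± 0.56 at 9 h (-0.45 and -2.07 in experiments 1 and 2), and MT1E -0.97 ± 0.45 (-0.65 and -1.29). MT4, a form of squamous epithelium, was the 1 higher in both experiments (log2 change 1.25 ± 0.45, limma adjusted p = 0.631). It read 31.8 and 29.0 intensity units at 9 h and only the floor at 0 h on both arrays, at least 2.38-fold higher. Its probe set was dim on every array and passed the filter only through the induced arrays, so a rise was favoured by the filter itself.

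**Figure D3:**
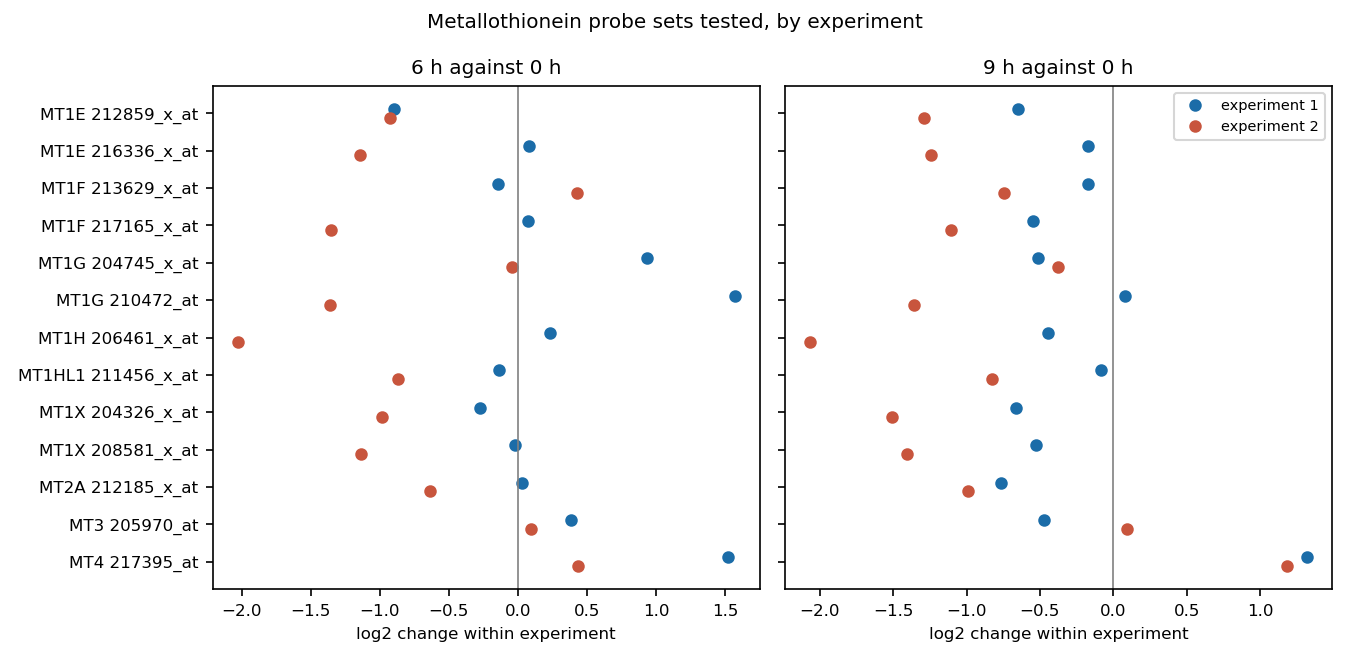
Log2 change within experiment 1 and experiment 2 for each tested metallothionein probe set, at 6 h (left) and 9 h (right) against 0 h. At 6 h most points of experiment 2 lie left of those of experiment 1, and at 9 h MT2A, MT1X, MT1F, MT1E, MT1H and MT1HL1 lie left of 0 in both experiments.

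Genes that act on NRF2 included its small MAF partners and BACH1, which competes with NRF2 for the same elements and represses HMOX1. Of 13 listed partners and regulators 12 were tested and 0 passed by limma; with the experiment as a term 1 passed on the higher side at 9 h, MAFF (adjusted p = 0.0298, log2 change 2.90, 4.01 and 1.80 in the experiments). That call was lost when the second 6 h array was placed in experiment 1, as its lot label has it (adjusted p = 0.557), and under that placement 0 of all probe sets passed by limma, with 1464 at a p under 0.05 before adjustment. BACH1 had a log2 change of 0.67 at 6 h and 1.36 ± 0.41 at 9 h (0.93 and 1.80 in the experiments, adjusted p = 0.596). MAFG had 0.91 ± 0.37 at 9 h, 0.91 and 0.90 in the experiments. The list's median at 9 h was -0.02, with 5 genes higher and 3 lower in both experiments, where 28% and 29.5% of all genes were. The 3 lower ones were KEAP1 (-0.13 and -0.54), RBX1 (-0.20 and -1.02) and BACH2 (-0.77 and -0.46).

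Among 40 listed NRF2 targets outside the members, 34 were tested and 0 passed, with or without the experiment as a term. At 9 h 4 were higher and 15 lower in both experiments, where 28% and 29.5% of all genes were, and the median log2 change was -0.17. SLC7A11, the cystine importer that feeds glutathione synthesis, had 1.37 ± 0.57 (1.26 and 1.47), higher on all 3 of its probe sets. The peroxiredoxin PRDX1 had -1.31 ± 0.61 (-0.62 and -1.99), and the carbonyl reductase CBR1 -1.58 ± 0.96 (-0.32 and -2.84). The cystine importer and the glutathione ligase subunit GCLM thus lay on 1 side, and these enzymes on the other.

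Of 24 glutathione and thioredoxin enzymes 21 were tested and 0 passed, and with the experiment as a term 1 passed on the higher side at 9 h, CHAC1, which degrades glutathione (adjusted p = 0.0384, log2 change 1.92), a call lost under the lot label (adjusted p = 0.557). CTH, which makes cysteine from cystathionine, had 2.56 ± 0.57 (2.21 and 2.92). Its mean log2 value at 0 h was 4.55, near the floor of 3.67. At 6 h its change had opposite signs in the experiments (-0.17 and 1.74). The glutathione transferase GSTZ1 had 1.30 ± 0.40, with 1 array at 0 h and both arrays at 6 h at the floor. GSTZ1 passed the filter only through the 9 h arrays, so a rise was favoured by the filter itself. The list's median was -0.18, with 6 genes higher and 9 lower in both experiments, where 28% and 29.5% of all genes were.

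Metal transport and sensing genes gave 24 tested of 28, 0 of them past the threshold, with a median of -0.11. At 9 h 6 were higher and 5 lower in both experiments, where 28% and 29.5% of all genes were. The zinc sensor MTF1 was among the higher ones, at 0.39 ± 0.37 (0.14 and 0.64). TF, transferrin, had a log2 change of 1.20 ± 0.94 at 9 h with its 2 probe sets of opposite sign, MTF2, a Polycomb protein that shares only its name's root with the zinc sensor, 0.89 ± 0.29 on 5 probe sets of 1 sign, and the copper chaperone ATOX1 -0.88 ± 0.37. Among 12 tested heme and iron genes of 16, 0 passed. At 9 h 1 was higher and 8 lower in both experiments, where 28% and 29.5% of all genes were. BLVRA, BLVRB and FTL, all lower in both, are also listed NRF2 targets, so these counts and those of the targets share genes. HMOX2, the constitutive heme oxygenase, had -0.74 ± 0.42, and the biliverdin reductases BLVRB and BLVRA had -0.67 ± 0.51 and -0.55 ± 0.37.

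Of 15 heat shock genes 12 were tested and 0 passed. The median was -0.53 at 9 h, with 1 higher and 7 lower in both experiments, where 28% and 29.5% of all genes were. HSPE1, a mitochondrial chaperonin, had -1.53 ± 0.96 (-0.46 and -2.59 in experiments 1 and 2). The small heat shock protein HSPB1 had -1.08 ± 0.30 and the heat shock factor HSF1 -0.65 ± 0.44. The 3 tested of 4 other antioxidant enzymes were lower in both experiments, as were 29.5% of all genes. SOD3 was at -1.16 ± 0.42, CAT at -0.43 ± 0.42 and SOD1 at -0.34 ± 0.35, and 0 passed. The 14 autophagy partners of SQSTM1 had the highest median of these lists, 0.42 at 9 h, with 0 past the threshold. In both experiments 7 were higher and 1 lower, beside the same 28% and 29.5% of all genes. Among them the ATG8 family member GABARAPL1 had 0.66 ± 0.48, BECN1 0.59 ± 0.30 and MAP1LC3B 0.56 ± 0.38.

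**Figure D4:**
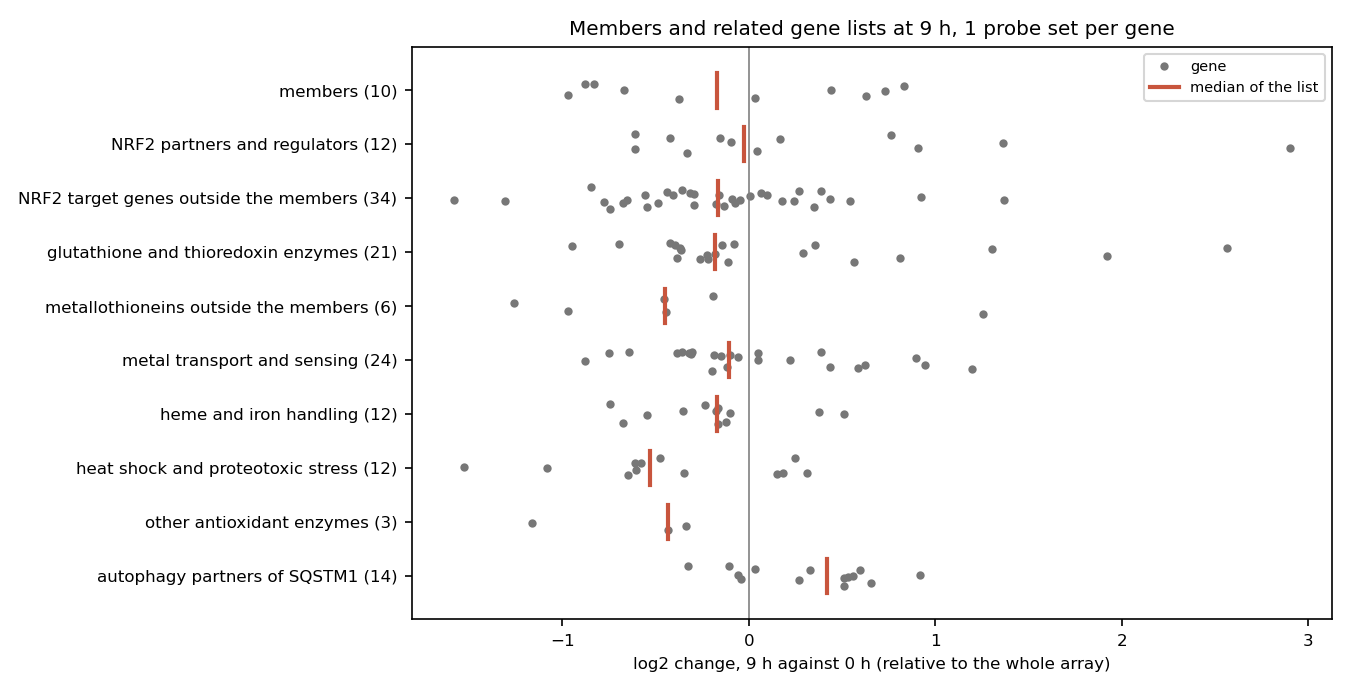
Log2 change at 9 h against 0 h of each tested gene, relative to the whole array, for the members and 9 related lists (number of tested genes in brackets). Points are genes, each by its brightest probe set, and red bars the median of the list; the autophagy partners have a median of 0.42 and the heat shock genes of -0.53, and MAFF is the point farthest right.

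Across the 6 arrays the genes with the pattern most like that of HMOX1 were PRMT7 (Pearson r = 0.989), OTUD4 (0.987), ITPR1 (0.985), GNA11 (0.980) and CC2D1A (0.977). For MT2A they were PPP2R5D (0.984), HIF1AN (0.984), EXOSC4 (0.983), DPAGT1 (0.981) and FARSA (0.981). These are the highest of 9797 probe sets with a range of at least 1 on the log2 scale, over 6 arrays that share cells and normalisation, and are a description only.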

How the data were processed

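RNA of 6 samples (3 times, 2 experiments) was measured on Affymetrix arrays, per the labels. The values deposited by the authors are 1 linear intensity per probe set and array; no source used here names the software that made them. Quantile normalisation, a floor at percentile 25 (12.7) and log2 transformation followed. Of 22283 probe sets, 68 controls were left out and 18360 with at least 2 arrays above the floor were tested. Changes were fitted with limma 3.58.1 in R 4.3.3 (lmFit, contrasts, eBayes with intensity trend, 3 residual degrees of freedom), two-sided, with Benjamini-Hochberg adjustment over all tested probe sets at 0.05. The fit was tested on simulated data for 9 h against 0 h. At an adjusted p under 0.05 it recovered 20% of true log2 changes of 2 and 69.4% of those of 4. The largest fitted member change was -1.09, so 0 passing members does not show that these genes were unchanged. Symbols came from the platform's probe table (19071 probe sets with 1 symbol, 1043 with several, 2169 with none).

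The labels make each experiment a batch of RNA, so its number pairs the arrays; deviations from the group means correlated at 0.247, 0.336 and 0.391 between same-numbered arrays. One label field places the second 6 h array in experiment 1; its title, which says 2, was followed. All probe sets of the members were described, and a listed gene was represented by its brightest probe set. Named by rule were the genes past the threshold and, 3 per list or fewer, those with the largest change at 9 h. The latter had to move in 1 direction in both experiments. A few other genes are named beside them for contrast or to state a limit. The members and lists were chosen with earlier results of these data known. Alternatives covered scaling, floor, filter, trend, block, samples and arrays left out. Precision is limited by having 2 arrays per group. The planned identity between metallothionein proteins was not run, as protein sequences were not used here.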

Additional observations from a re-analysis of the deposited data

Results flagged for a closer look

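Both dimmer NQO1 probe sets moved in opposite directions in the 2 experiments, above the 0 h level at both induced times in experiment 1 and below it at both in experiment 2. At 9 h against 0 h in experiment 1 the log2 change was 0.18 on 201467_s_at (0.1793) and 0.18 on 201468_s_at (0.1822), and in experiment 2 it was -0.54 and -0.32. The difference between the experiments was not tested.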

How the results depend on the processing

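By limma 0 member probe sets passed in each comparison and under all 16 alternatives run, with a lowest adjusted p of 0.109 to 1.00 at 9 h against 0 h. Over all probe sets the counts of 0 became 24 (6 h against 0 h), 12 (9 h against 0 h) and 18 (9 h against 6 h) with no filter on dim probe sets, and 66 at 9 h against 0 h with the experiment as a replicate block, which changed no call of a member. The counts stayed at 0 with the lot line as the block and with any 1 array left out, where fits hold a group of 1 array that is assumed to vary like the others. Without scaling between arrays the log2 changes that turned sign for 6 h against 0 h were GCLC 202923_s_at -1.23, GCLM -1.43, MT1F 213629_x_at -1.33, NFE2L2 -1.27, SQSTM1 201471_s_at -1.33, SQSTM1 213112_s_at -0.99. Without scaling between arrays the log2 changes that turned sign for 9 h against 0 h were SQSTM1 201471_s_at -0.24, SQSTM1 213112_s_at -0.13, TXNRD1 -0.60. Without scaling between arrays the log2 changes that turned sign for 9 h against 6 h were HMOX1 0.55, MT1F 213629_x_at 0.32, MT1F 217165_x_at 0.78, MT1X 204326_x_at 0.55, MT1X 208581_x_at 0.61, MT2A 0.26, NQO1 210519_s_at 0.83, SQSTM1 213112_s_at 0.86. All probe sets shifted by a median of -1.34, -0.56 and 0.75 in these comparisons. With trimmed-mean scaling GCLC 202922_at turned to 0.0059 at 6 h and 0.021 at 9 h against 0 h, and TXNRD1 to -0.012 at 9 h against 0 h. With the lot line as the block GCLC 202922_at turned to 0.23 (6 h against 0 h) and -0.23 (9 h against 6 h), and for 9 h against 6 h NQO1 210519_s_at to 0.11 and SQSTM1 201471_s_at to -0.24. The cause was not tested. With 1 array left out, the ranges that crossed 0 for 6 h against 0 h were GCLC 202922_at -0.35 to 0.33, HMOX1 -0.82 to 0.12, MT1F 213629_x_at -0.30 to 0.58, MT1F 217165_x_at -1.30 to 0.019, NQO1 201467_s_at -0.72 to 0.27, NQO1 201468_s_at -1.01 to 0.40, NQO1 210519_s_at -0.57 to 0.17, SQSTM1 201471_s_at -0.049 to 0.63, SQSTM1 213112_s_at -0.29 to 1.38, TXNRD1 -0.55 to 0.27. With 1 array left out, the ranges that crossed 0 for 9 h against 0 h were GCLC 202922_at -0.28 to 0.26, NQO1 201467_s_at -0.43 to 0.078, NQO1 201468_s_at -0.69 to 0.55, SQSTM1 201471_s_at -0.059 to 0.94, SQSTM1 213112_s_at -0.39 to 1.28, TXNRD1 -0.56 to 0.62. With 1 array left out, the ranges that crossed 0 for 9 h against 6 h were GCLC 202922_at -0.34 to 0.34, HMOX1 -0.79 to 0.15, MT1F 217165_x_at -0.85 to 0.48, MT1X 204326_x_at -1.02 to 0.098, NQO1 201467_s_at -0.45 to 0.55, NQO1 201468_s_at -0.47 to 0.94, NQO1 210519_s_at -0.54 to 0.19, SQSTM1 201471_s_at -0.35 to 0.64, SQSTM1 213112_s_at -0.66 to 0.46, TXNRD1 -0.42 to 0.76. NFE2L2, GCLM, GCLC 202923_s_at, HMOX1 and all 5 metallothionein probe sets kept their direction at 9 h against 0 h under every alternative run. Only the scaling settings could have turned these signs, and the one without scaling favours lower values. Floor, filter, trend and block left these changes as they were. Their 9 h and 0 h arrays did not overlap, so leaving 1 array out cannot turn the sign.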
